A study of Mus musculus with 20 samples.

Results

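The SMN complex genes were taken by symbol as Smn1, Gemin2, Gemin4, Gemin5, Gemin6, Gemin7, Gemin8, Ddx20 and Strap, 9 genes in all. The RNA-Seq and POL-Seq count table listed 8 of them among 14924 genes, and the 3′-end count table listed all 9 among 9621 genes. Gemin4 had no row in the first table. In the annotation it lies wholly within Glod4 on the same strand. The cells were NSC-34, a mouse hybrid line made by fusing neuroblastoma with embryonic spinal cord cells enriched in motor neurons. In the HuD groups a Trex derivative of this line carried a lentiviral, tetracycline-inducible human HuD with a His-HA tag. HuD, the product of ELAVL4, is a neuronal RNA-binding protein that recognises U-rich stretches. For RNA-Seq (total cytoplasmic RNA), POL-Seq (RNA of the polysome fractions of a sucrose gradient) and 3′-end sequencing, induction of HuD lasted 48 h at a tetracycline dose of 2 μg/ml, and the labels, which name the others only as control cells, do not say whether those received tetracycline. There were 2 control and 2 HuD libraries each for RNA-Seq and POL-Seq, and 3 and 3 for 3′ ends. CRAC crosslinks HuD to RNA with UV light and reads the bound fragments. For it, HuD and control Trex cells both received 10 μg/ml for 24 h, the tetracycline dose and time in the paper's methods. The paper's results section instead names 48 h of doxycycline at 2 μg/ml for CRAC. The CRAC table pooled the replicates.

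The SMN complex assembles the ring of Sm proteins onto spliceosomal small nuclear RNAs (snRNAs) in the cytoplasm. SMN, the product of Smn1, is its scaffold, and too little of it causes spinal muscular atrophy, a disease of motor neurons. Gemin2 holds the Sm proteins, Gemin5 recognises the snRNA, Ddx20 is a helicase that binds Gemin4, Gemin8 links the pair of Gemin6 and Gemin7 to SMN, and Strap (also called unrip) joins the complex from its edge.

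Library totals ran from 21296012 to 36284728 counts for RNA-Seq and POL-Seq and from 12986862 to 15751036 for 3′ ends, and POL-Seq control replicate 2 was the shallowest of the first 8. The spread between replicates differed among groups. The counts of the 2 POL-Seq HuD libraries differed by a chi-square per degree of freedom of 7.91, against 38.9 for the 2 POL-Seq control libraries. Elavl4 in CPM (counts scaled to the library total with TMM factors) was 78.3 and 97.4 in RNA-Seq control and 236.6 and 211.7 in RNA-Seq HuD libraries, a 2.55-fold difference (log2 1.35 ± 0.15 SE, edgeR adjusted p = 0.0866). In these counts the human transgene and the mouse gene cannot be told apart. The 3′-end counts, taken at annotated mouse ends, do not check the transgene. There Elavl4 was 78.1, 38.5 and 78.1 CPM in control and 54.6, 31.4 and 52.4 CPM in HuD libraries 1, 2 and 3 (log2 -0.49 ± 0.29 SE, edgeR adjusted p = 0.922, and -0.47 with adjusted p = 0.0306 when the library number was fitted as a block). The neuron list had 6 of 6 genes in the table, 5 of them with a mean of at least 1 CPM. Its summed level was 968.6 to 1160 CPM over the 8 libraries, and Tubb3 alone averaged 603.4 CPM. Of 6 motor neuron genes, 4 were listed (43.5 to 58.5 CPM summed), and the defining markers Slc5a7 and Mnx1 were not among the rows. Isl1 alone averaged 41.1 CPM, and 3 of the 4 had a mean of at least 1 CPM. The astrocyte, oligodendrocyte, microglia and endothelial lists had 1 of 4, 2 of 4, 1 of 4 and 2 of 3 genes listed, and no library's sum for any of them exceeded 12.1 CPM. The study names biological duplicates for RNA-Seq and POL-Seq and biological triplicates for 3′ ends.

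Among these genes only Strap had a HuD window in the CRAC table, in its 3′ UTR, and its sequence is shown because no other window was listed on a member. The same 7 letters, UAUUUUU, occurred at 4 other places in the members' longest annotated 3′ UTRs (GENCODE vM21 transcripts, GRCm38), where no window was listed. Each line below gives the letters in capitals within 10 bases of context on either side, 5′ to 3′ on the transcript.
Strap, listed window (chr6:137751060-137751066, plus strand): gaacagcucaUAUUUUUaguuaucuaa
Strap, not listed (chr6:137750931-137750937, plus strand): uauauuggccUAUUUUUcugacuuucc
Gemin5, not listed (chr11:58121146-58121152, minus strand): uagguuauuuUAUUUUUuacggaguug
Ddx20, not listed (chr3:105678412-105678418, minus strand): gggacacaauUAUUUUUcagauuauuu
Ddx20, not listed (chr3:105678400-105678406, minus strand): uuuuucagauUAUUUUUagaacuugga

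The genes differed about 8-fold in level per length. Per kilobase of merged exons and averaged over the 8 RNA-Seq and POL-Seq libraries, Strap stood highest at 83.5 ± 9.8 CPM per kb (SD, n = 8). Smn1 followed at 35.3 ± 2.8, Gemin6 at 31.2 ± 2.0, Gemin8 at 16.4 ± 1.1, Gemin5 at 16.4 ± 1.3, Gemin2 at 15.5 ± 1.1, Gemin7 at 12.2 ± 2.3 and Ddx20 at 10.4 ± 1.2 CPM per kb. Strap lay above Smn1 without overlap, and the same held for Gemin6 above Gemin8. Smn1 exceeded Gemin6 in 8 of 8 libraries although their ranges overlapped. Gemin8 exceeded Gemin5 in 4 of 8 libraries, so these neighbours could not be ordered. In control total RNA Strap ranked above 95.3% and Ddx20 above 63.1% of the 14182 genes with an annotated length. Counts behind these levels were 6260 to 9404 reads a library for Strap, 2043 to 3446 for Smn1 and 285 to 830 for Gemin7, the gene with the fewest.

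Across the 8 libraries the SD of log2 CPM of Smn1 was 0.12, and the median over the 2723 genes within 1.5-fold of its level was 0.11. The SDs of Ddx20 and Strap, 0.16 and 0.17, lay above the medians of their like-level genes, 0.12 and 0.11. Gemin7 had the highest SD of the members, 0.31 against a median of 0.13 over 2190 genes of like level. In 4 of 8 members (Gemin2, Gemin5, Ddx20 and Strap) the library numbered 2 exceeded that numbered 1 in each of the 4 groups, which 19.9% of all genes did.

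**Figure D1:**
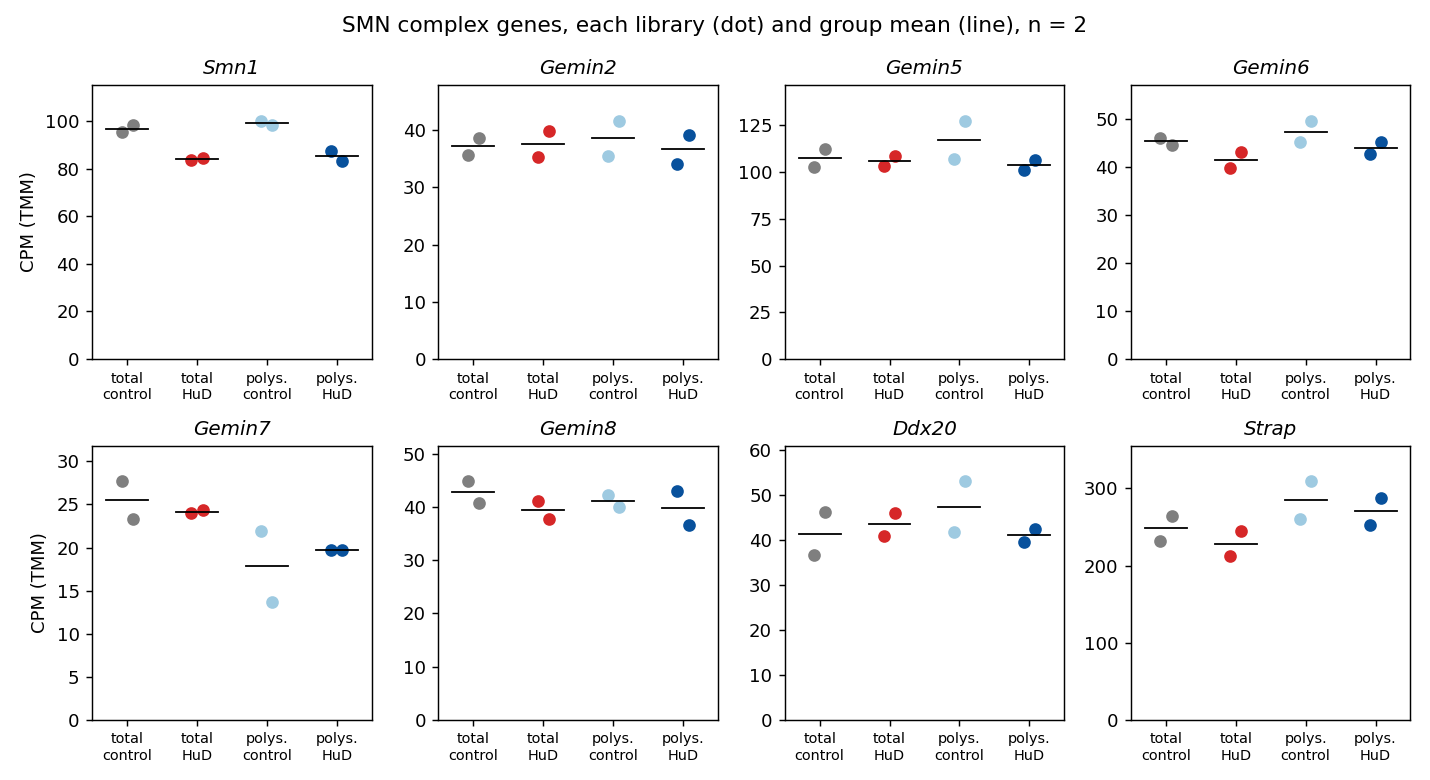
CPM after TMM scaling of 8 SMN complex genes (y axis, 0 at the base) in the 2 libraries of each group (dots) with the group mean (line). Smn1 sat between 83.5 and 84.5 in HuD total RNA and between 95.3 and 98.5 in control total RNA, and Gemin7 was lowest, at 13.7, in POL-Seq control replicate 2.

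Polysomal against total RNA compared the relative level of each mRNA in the polysome fractions with that in total RNA. The scaling takes out any shift common to most genes. A change in global translation efficiency, which the paper reports with HuD, would therefore not show. In control cells no member differed between the fractions at an adjusted p under 0.05 (edgeR quasi-likelihood test), where 0.174% of 14906 genes did. The estimates ran from -0.50 for Gemin7 to 0.20 for Strap on the log2 scale, with a median of 0.054 over the 8 members and 0.0090 over all genes. Smn1 was 95.3 and 98.5 CPM in total and 100.2 and 98.3 CPM in polysomal RNA of control cells. The values overlapped, and the 95% interval of the log2 difference ran from -0.14 to 0.20.

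Gemin7, which pairs with Gemin6 in a Sm-like dimer, was the only member lower in polysomal RNA without overlap in both conditions. In control cells it was 27.7 and 23.3 CPM in total and 22.0 and 13.7 CPM in polysomal RNA. In HuD cells it was 24.0 and 24.3 CPM in total and 19.7 and 19.7 CPM in polysomal RNA. The share of all genes lower without overlap was 20.1% in control and 24.5% in HuD cells, and the share lower in both was not counted. The log2 difference was -0.50 ± 0.19 (SE) in control cells (unadjusted p = 0.0246, a level that 10.7% of genes reached, adjusted p = 0.462) and -0.29 ± 0.18 in HuD cells (adjusted p = 0.585). Much of the control value came from replicate 2 of POL-Seq. Without replicate 1 the difference was -0.89 (adjusted p = 0.00456), a setting in which 2145 genes were called in place of 26, and without replicate 2 it was -0.22. Gemin7 shares 309 nt with Zfp296 on the opposite strand. The library kit was stranded, but whether counting used the strand was not given in the sources used here.

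Strap showed the reverse order. It was 232.0 and 264.4 CPM in total and 260.4 and 309.0 CPM in polysomal RNA of control cells, and 212.8 and 244.2 CPM in total and 253.0 and 287.5 CPM in polysomal RNA of HuD cells. The groups overlapped in control cells and not in HuD cells, as in 25.3% of all genes in that direction. The log2 differences were 0.20 ± 0.12 and 0.24 ± 0.12 (SE, adjusted p = 0.525 and 0.477). In HuD cells no member reached an unadjusted p under 0.05 (12.4% of genes did) or an adjusted one (0.537% of genes). The median of the 8 members was -0.0080 and that of all genes 0.0055. The control and HuD comparisons use separate libraries.

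**Figure D2:**
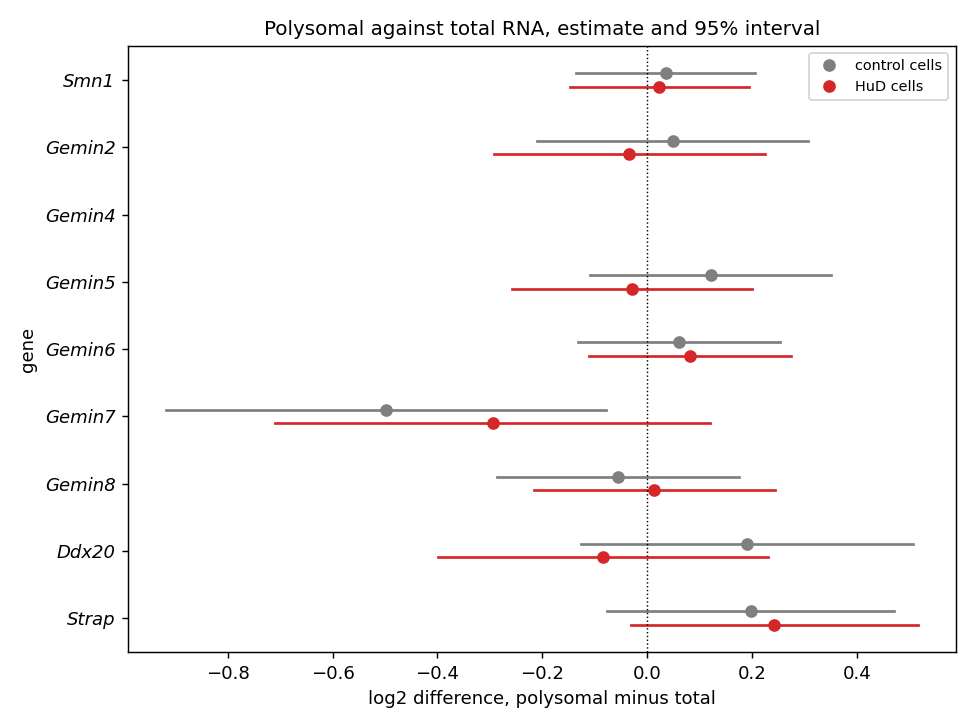
Log2 difference of polysomal minus total RNA (x axis) for 8 SMN complex genes in control (grey) and HuD cells (red), with lines giving the 95% interval. Every interval but that of Gemin7 in control cells, -0.92 to -0.080, reached 0, and Gemin4 has no value because the table listed no row for it.

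HuD against control addressed whether the induced protein altered the level of these mRNAs. No member passed an adjusted p of 0.05 in total RNA, polysomal RNA or their ratio, and 0% of all 14906 genes did so in each of these comparisons by edgeR. The paper, also with TMM and edgeR, reports genes whose translation efficiency rose or fell with HuD. It reports HuD targets as enriched among those that rose. The threshold for these calls is not given in its methods. At an unadjusted p under 0.05 edgeR gave 394, 622 and 146 genes (2.64%, 4.17% and 0.979%), and DESeq2 called 1, 3 and 0 genes after adjustment. Of the members, 6 of 8 lay below 0 in total RNA and 7 of 8 in polysomal RNA, against 51.3% and 51.6% of all genes. Their medians were -0.096 and -0.092 on the log2 scale and those of all genes -0.0039 and -0.0063.

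Smn1 had the lowest estimate of the members in both fractions. In total RNA it was 95.3 and 98.5 CPM in control and 83.5 and 84.5 CPM in HuD cells. In polysomal RNA it was 100.2 and 98.3 CPM in control and 87.3 and 83.5 CPM in HuD cells. The HuD libraries lay below the control libraries in each fraction, as in 16.7% of genes in total and 14.6% in polysomal RNA. How many genes did so in both fractions was not counted. The log2 difference was -0.21 ± 0.076 (SE) in total RNA, a fold of 0.867, with a 95% interval of -0.38 to -0.035 (unadjusted p = 0.0232, adjusted p = 1.00). It was -0.22 ± 0.076 in polysomal RNA, a fold of 0.860, with an interval of -0.39 to -0.047 (unadjusted p = 0.0178, adjusted p = 0.969). The ratio of polysomal to total RNA of Smn1 had a difference of -0.012 with an interval of -0.25 to 0.23. Smn1 failed the correction over all genes in each case. Its unadjusted p was above 0.05 in total RNA by DESeq2 and without any 1 of the 4 libraries, and in polysomal RNA without POL-Seq HuD replicate 2.

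Of the Gemin5 libraries, those with HuD were lower without overlap only in polysomal RNA, at 101.3 and 106.4 CPM against 106.8 and 127.5 CPM (log2 -0.17 ± 0.10 SE, adjusted p = 0.969). That estimate was -0.30 without POL-Seq control replicate 1 and -0.035 without replicate 2. In total RNA Gemin5 was 102.9 and 112.5 CPM in control and 103.0 and 108.9 CPM in HuD cells. Gemin5 shares 2445 nt with the antisense gene Gm12246. Gemin6 was lower without overlap only in total RNA, at 39.8 and 43.1 CPM against 46.1 and 44.6 CPM (log2 -0.13 ± 0.085 SE, adjusted p = 1.00). Its polysomal values, 42.6 and 45.1 CPM with HuD and 45.1 and 49.6 CPM in control cells, overlapped.

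Ddx20 had the lowest estimate in the ratio. It was 36.5 and 46.2 CPM in total control, 40.9 and 45.9 CPM in total HuD, 41.7 and 53.0 CPM in polysomal control and 39.6 and 42.4 CPM in polysomal HuD libraries. The ratio differed by -0.27 ± 0.20 (SE), with an interval of -0.72 to 0.17 (adjusted p = 1.00). Leaving out 1 library at a time moved it from -0.45, without RNA-Seq control replicate 2, to -0.093, without POL-Seq control replicate 2. Gemin2 (log2 0.012 in total and -0.070 in polysomal RNA), Gemin8 (-0.12 and -0.048) and Strap (-0.12 and -0.075) overlapped between conditions in both fractions. The widest interval was that of Gemin7 in the ratio, -0.38 to 0.79. Over the 8 members the ratio had a median of 0.0038, with 4 above and 4 below 0.

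**Figure D3:**
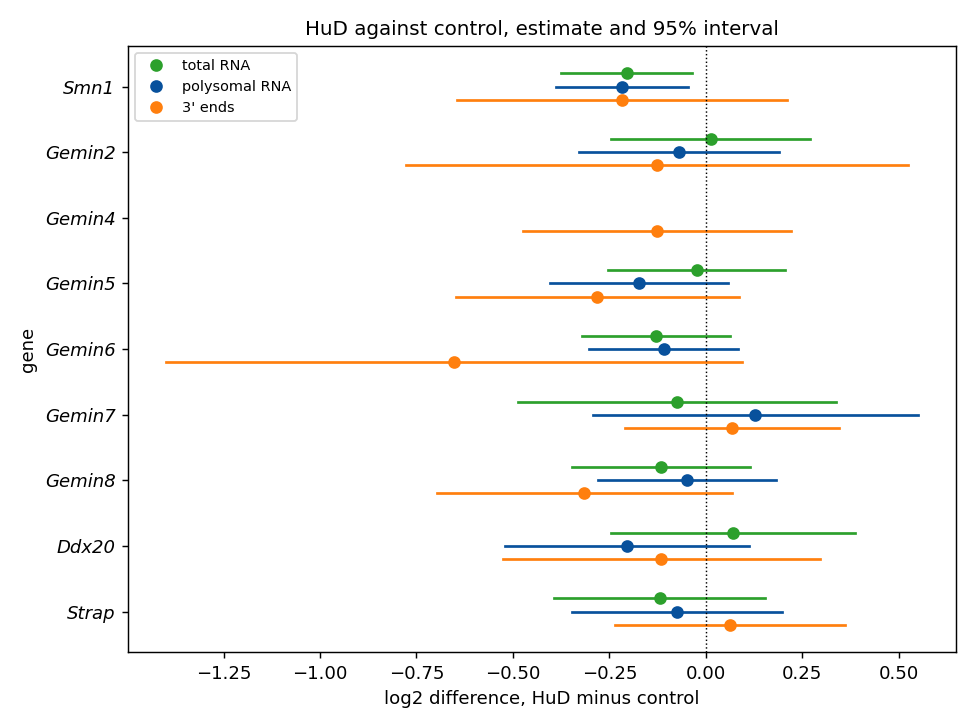
Log2 difference of HuD minus control (x axis) for each SMN complex gene in total RNA (green), polysomal RNA (blue) and 3′ ends (orange), with lines giving the 95% interval. Smn1 sat at -0.21, -0.22 and -0.22, and its intervals in total and polysomal RNA lay below 0.

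The 3′-end libraries gave a separate measure of the same contrast. With 3 libraries in each group no member passed an adjusted p of 0.05 (5 of 9621 genes, 0.052%, did), and none reached an unadjusted p under 0.05 (5.87% of genes did). By DESeq2 35 genes and no member were called. Of the 9 members, 7 lay below 0 against 49.9% of all genes, with a median of -0.13 on the log2 scale and of 0.00025 over all genes. Groups overlapped for all 9.

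Smn1 was 239.1, 331.3 and 246.7 CPM in control and 188.8, 292.0 and 222.5 CPM in HuD libraries 1, 2 and 3. Each HuD library lay below the control library of the same number, the changes being -21.0%, -11.9% and -9.80%. The log2 difference was -0.22 ± 0.19 (SE) with an interval of -0.64 to 0.21 (adjusted p = 0.966). Same-numbered 3′-end libraries deviated together across genes, so the number was also fitted as a block. The correlation between differently numbered libraries was not computed, so the pairing itself was not established. The chi-square per degree of freedom between libraries 1 and 3 was 13.2 in control and 12.1 in HuD. It was 28.9 to 55.9 for comparisons with library 2. The block left the estimate of Smn1 at -0.22 and narrowed its SE to 0.076 (interval -0.39 to -0.057, unadjusted p = 0.0128, adjusted p = 0.143).

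With that block 4 of 9 members reached an unadjusted p under 0.05, against 18.7% of genes, and none an adjusted one, against 2.26% of genes (217 in place of 5). Besides Smn1 these were Gemin5 (-0.29, adjusted p = 0.211), Gemin6 (-0.69, adjusted p = 0.188) and Gemin8 (-0.32, adjusted p = 0.233). These 4 genes were lower in 3 of 3 same-numbered pairs, as were 20.4% of all genes. That count rests on the same values as the block fit and is no separate result. Gemin5 was 23.9, 25.2 and 24.6 CPM in control and 19.0, 24.2 and 17.4 CPM in HuD libraries. Gemin8, the link between SMN and the Gemin6 and Gemin7 pair, was 23.3, 18.7 and 23.0 CPM in control and 19.0, 18.6 and 14.7 CPM in HuD libraries. Its second pair differed by -0.456%. Gemin6 was 2.33, 3.13 and 2.48 CPM in control and 1.63, 2.40 and 0.996 CPM in HuD libraries, a low level at which few reads carried the value. Without the block, leaving out 1 library at a time moved the estimates from -0.40 to -0.051 for Smn1, from -0.43 to -0.18 for Gemin5 and from -1.01 to -0.38 for Gemin6, the first of each pair being the value without HuD replicate 2.

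The other members stood on either side of 0. Gemin4, measured only here, was 13.8, 14.8 and 14.3 CPM in control and 12.2, 12.6 and 14.4 CPM in HuD libraries (log2 -0.13 ± 0.15 SE). Strap was 71.0, 83.2 and 86.7 CPM in control and 76.4, 88.9 and 86.4 CPM in HuD libraries, with an interval of -0.23 to 0.36. Gemin7 had a difference of 0.068 and Ddx20 of -0.12. The single end listed for Gemin2 belongs to a retained-intron transcript, at 2.27 ± 0.49 CPM (SD, n = 6), and whether the coding mRNA uses this end was not tested. Gemin2 is among the 7 genes below 0.

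**Figure D4:**
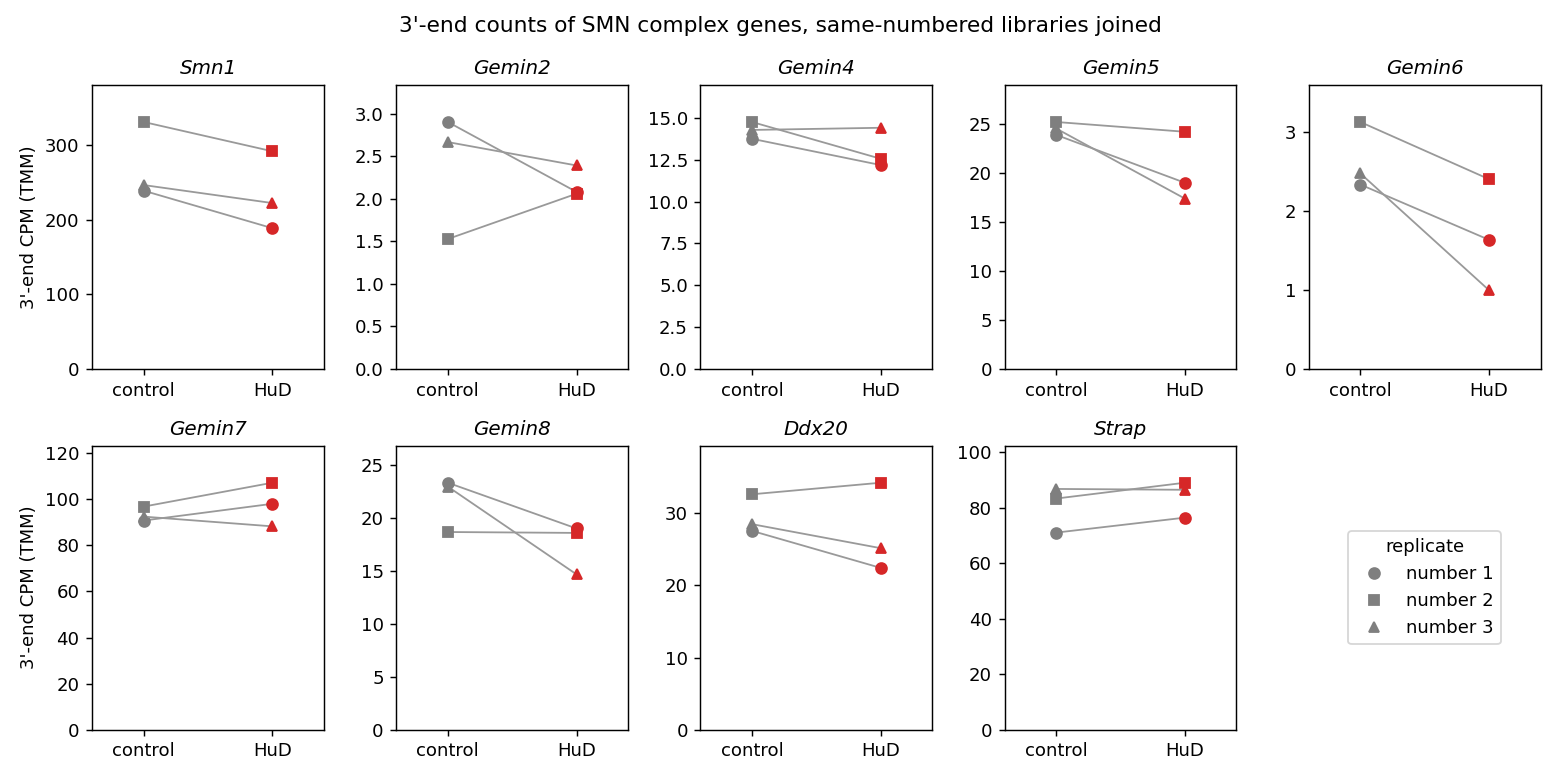
CPM after TMM scaling at the 3′ ends (y axis, 0 at the base) of the 9 SMN complex genes in control (grey) and HuD libraries (red), with lines joining libraries of the same number. The lines of Smn1, Gemin5, Gemin6 and Gemin8 fall in all 3 pairs, and those of Strap and Gemin7 in 1 of 3.

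The order of the genes at their 3′ ends differed from that in RNA-Seq. Smn1 was highest at 253.4 ± 50.9 CPM (SD, n = 6), above Gemin7 at 95.6 ± 6.8 and Strap at 82.1 ± 7.0, and its lowest library exceeded the highest of either. The value of Gemin7 is a sum over 2 listed ends 3 nt apart, the larger holding 61.0% of it in control libraries. The paper counted reads that start near each known site. Whether the same reads were counted at both ends was not tested, so Gemin7 and Strap could not be ordered. Gemin6, which only Strap and Smn1 exceeded in RNA-Seq level per length, was last at 2.16 ± 0.74 CPM. The last 30 bases before selected ends are shown because counting was tied to annotated ends, with the hexamers AAUAAA or AUUAAA, the signals for cleavage and polyadenylation, in capitals where they lie within these bases.
Smn1 (chr13, end at 100137690): ccuuuagaauuaAAUAAAaguccuuuuuug
Gemin6 (chr17, end at 80228497): aguaaaaauccguuucggguucuuuugacu
Gemin5, distal (chr11, end at 58120002): gagaAUUAAAauggcaacuguuuucuucuu
Gemin5, proximal (chr11, end at 58121290): augcagcugccuuuauaaauccucaccauc
Of the members' 14 listed ends 11 had such a hexamer within 40 bases, against 81.5% of 13028 listed ends matched to a transcript end. That of Smn1 ended 12 bases before the listed end and that of Gemin6, AUUAAA, 29 bases before it. The 3 ends without a hexamer were the proximal end of Gemin5 and the pair of upstream ends of Gemin8.

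No shift between alternative ends was detected. Gemin5, Gemin7 and Gemin8 had 2, 2 and 4 listed ends, and none passed the test of end usage (edgeR diffSpliceDGE with the Simes method, adjusted p = 1.00 for each), where 1 of 3317 genes (0.0301%) did. The distal end of Gemin5, 1288 nt beyond the proximal one, took 47.8 ± 3.6% of its counts in control and 49.0 ± 1.4% in HuD libraries (SD, n = 3). Merging ends within 20 nt kept only the end with the most counts and dropped the others. After it the upstream end of Gemin8 took 64.0 ± 12.2% and 64.2 ± 16.8% of the counts kept, and the spread between libraries of 1 group exceeded the difference by far. The ends of Gemin7 lay 3 nt apart, so the same reads may count at both and its usage test says little. The letters UAUUUUU of Gemin5 lie beyond its proximal end, so that only transcripts using the distal end hold them.

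In the CRAC table the window of Strap lay 447 bases after the stop codon and 866 before the transcript's end. It had 22 HuD reads, 3 of them with a deletion, and 0 control reads. The deletions were at the table's minimum of 3, and the medians over 2606 windows on coding genes were 26 reads and 5 deletions. Its combined p, the authors' value from coverage and deletions, was 0.292 and its motif score 0.97. No replicate check was possible, because replicates were pooled. Among the 8 members with RNA-Seq counts 1 had a window, against 9.90% of 12947 coding genes. The share grew with level, at 10.7% of the 5020 coding genes within the level range of the other 7 members (25.5 to 107.7 CPM) and 28.4% of 945 genes within 1.5-fold of Strap. That no window was listed for Smn1 or the Gemins says only that no site passed the table's criteria at this depth.

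In their longest annotated 3′ UTRs the members held 2 to 52 matches to the 230 distinct 7-base windows listed for coding genes. Strap had 52 in 1320 nt, or 39.4 per kb, where the median of 1632 genes with a 3′ UTR of like length was 24.6. Gemin6 (41.7 per kb in 384 nt) and Gemin8 (35.6 per kb in 1012 nt) were as dense and had no window listed. Smn1 had 7 matches in 313 nt, 22.4 per kb, close to the 20.7 of genes with a like length, and Gemin7 had 2 in 333 nt. Strap held 7 copies of AUUUA, the core of AU-rich elements, which Smn1, Gemin4, Gemin7 and Ddx20 lacked. Of 3′ UTRs of Strap's length 80.9% held AUUUA. At the shorter lengths of Smn1, Gemin4, Gemin7 and Ddx20 the shares were 36.2%, 25.6%, 35.8% and 35.2%, so most such 3′ UTRs lack it. These are matches of letters on the transcript strand, overlapping matches counted, and 98.2% of 12391 3′ UTRs held at least 1 listed window while 39.8% held UAUUUUU.

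No pathway partner of the complex passed the test. Of 37 genes in 5 pathway lists, 36 had RNA-Seq counts, and 0 had an adjusted p under 0.05 (edgeR) in any of the 6 comparisons of levels or ratios. At an unadjusted p under 0.05 edgeR gave 1 of the 36 (Lsm3) for polysomal against total RNA in control cells, where 10.7% of all genes reached that level, and 3 (Snrpb, Snrpd3 and Lsm3) in HuD cells, against 12.4%. For HuD it gave 1 (Snrpb) in total RNA against 2.64%, 0 in polysomal RNA against 4.17%, 0 in the ratio against 0.979%, and 1 (Coprs) of the 32 with 3′-end counts against 5.87%. These 4 genes are named because they make up the counts, after their values were seen. Between polysomal and total RNA of control cells 19 lay above and 17 below 0, with a median of 0.011 against 0.0090 over all genes. Between HuD and control total RNA 9 lay above and 27 below, against 51.3% of all genes below, with a median of -0.046 on the log2 scale against -0.0039. The 8 Sm proteins, which SMN loads onto snRNA, had a median of -0.15 in total RNA with HuD, 7 of 8 below 0, and of -0.055 in polysomal RNA. The 7 genes of Sm methylation and chaperoning had medians of -0.039 and -0.013, the 8 of snRNA export, cap trimethylation and import -0.043 and -0.070, the 10 U7 and LSm genes -0.041 and 0.061, and the 3 U1 particle genes -0.15 and 0.014.

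HuD windows were listed on 9 of these 36 genes (25%), against 9.90% of all coding genes. The share was 10.7% of coding genes at 25.5 to 107.7 CPM and 28.4% of those within 1.5-fold of Strap's level. The levels of the 36 were not matched to any of these sets. By list they fell on 3 of 8 Sm protein genes, 4 of 10 U7 and LSm genes, 1 of 7 genes of Sm methylation and chaperoning, 1 of 8 of snRNA export and import, and 0 of 3 U1 particle genes. The windows on the Sm protein genes are shown because these proteins are the complex's cargo, and they were chosen after the values were seen.
Snrpd3, coding sequence (chr10:75532263-75532269, plus strand): uccgauuucuGAUUUUGccugacaugc
Snrpd3, 3′ UTR (chr10:75535414-75535420, plus strand): auaugucuuaGAUUUUCuuuugauaaa
Snrpf, 3′ UTR (chr10:93583450-93583456, minus strand): uagcaucuugGAUUUUUuuuuuuauau
Snrpn, 5′ UTR (chr7:59988677-59988683, minus strand): cugcaucgaaCCUUUAUuuauaucccu
The coding window of Snrpd3 had 47 HuD reads, 44 with a deletion. The window of Snrpf had 75 HuD reads, 10 with a deletion, and 2 control reads. The 3′ UTR window of Snrpd3 had only 14 HuD reads, 3 of them with a deletion, the table's minimum. The window of Snrpn had 67 HuD reads, 5 with a deletion. The medians over 2606 windows on coding genes were 26 reads and 5 deletions. With HuD the log2 difference of Snrpd3 was -0.14 in total and in polysomal RNA (adjusted p = 1.00 and 0.969), and that of Snrpf -0.24 and 0.055.

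The genes whose log2 CPM followed Smn1 most closely over the 8 RNA-Seq and POL-Seq libraries, among 9701 genes with a mean of at least 10 CPM, were Poc1a, a centriole protein (Pearson r = 0.98), Skp2, a subunit of a ubiquitin ligase (r = 0.97), and Tulp3, a protein of ciliary trafficking (r = 0.97). The points share libraries and depth, and no test was made. Poc1a was 26.2 and 27.5 CPM in control and 23.7 and 23.6 CPM in HuD total RNA. Among the other members Gemin6 had the highest r with Smn1, 0.66, and Gemin7 the lowest, -0.18.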

How the data were processed

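Per the labels and the study's methods, the authors aligned RNA-Seq, POL-Seq and 3′-end reads to GRCm38.p4 with STAR 2.5.3a and CRAC reads with TopHat2 2.0.14, and deposited raw counts per gene or 3′ end. For CRAC the deposited read coverage and deletion counts pool replicates, and the authors gave a combined p-value and a motif score to each window. Unique ends were summed per gene. EdgeR 4.0.16 in R 4.3.3 (TMM, filterByExpr, quasi-likelihood test, 4 group means for the 8 RNA-Seq and POL-Seq libraries and 2 for 3′ ends) gave log2 differences, 95% intervals and Benjamini-Hochberg adjusted p over all genes tested. Scripts were tested on simulated counts. Listed windows, read as 0-based, lay 1 base (plus strand) or 2 bases (minus strand) upstream of their letters in vM21 transcripts, and printed positions are those of the letters. Same-numbered 3′-end libraries had correlated deviations from their group means (r = 0.40, 0.66 and 0.52), the numbers coming from the titles. For differently numbered libraries no correlation was computed. The members and lists were chosen with earlier results of these data known. Named genes were the 9 members, any list gene with the most positive or negative polysomal difference past an adjusted p of 0.05 (none passed), and the 3 genes most like Smn1. Snrpb, Snrpd3, Lsm3, Coprs, Snrpf and Snrpn were named after their values were seen. DESeq2 1.42.0, other size factors, no filter, a replicate block, merged ends (for gene sums chosen after seeing the data) and leaving out each library were alternatives. Merging kept the end with the most counts among those within 20 nt, and the counts of the others were dropped, not added.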

Additional observations from a re-analysis of the deposited data

How the results depend on the processing

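With 2 or 3 libraries a group the intervals of single genes stayed wide. In RNA-Seq and POL-Seq, Gemin7 had the fewest reads of the members (285 to 830 a library) and the highest SD of log2 CPM (0.31). Gemin2 and Gemin6 had the lowest levels at 3′ ends, with means of 2.27 and 2.16 CPM. Under other size factors, no filter, DESeq2, the replicate block and, for 3′ ends, merging within 20 nt, all 205 values of single members kept their direction and none was called. Counts of all genes moved by over 1.5 times with DESeq2, to 67 and 240 for polysomal against total RNA in control and HuD cells, 1 and 3 for HuD in total and polysomal RNA and 35 at 3′ ends. With the replicate block the counts were 41 and 416 for polysomal against total RNA in control and HuD cells and 217 for HuD at 3′ ends, and the block changed no call of a member. For RNA-Seq and POL-Seq, as for 3′ ends, the libraries share only a number. With only 2 numbers (correlations of deviations of 0.19 to 0.39), the block for RNA-Seq and POL-Seq is given here alone. Under it the members at an unadjusted p under 0.05 were 3 for polysomal against total RNA in control cells (Gemin7, Ddx20 and Strap), 1 in HuD cells (Strap, adjusted p = 0.0733), and for HuD 1 in total RNA (Smn1), 3 in polysomal RNA (Smn1, Gemin5 and Ddx20) and 1 in the ratio (Ddx20). Merging ends left 0 genes in place of 1 in end usage, and at a combined p under 0.05 there were 0 windows on the members. The causes were not tested.

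Leaving out 1 library at a time gave 0 to 2145 genes for polysomal against total RNA in control cells (0 to 1 member), 0 to 9 in HuD cells, 0 to 372 for HuD in polysomal RNA, 0 to 47 for the ratio, 2 to 14 at 3′ ends and 0 to 1 in end usage. The counts of 2145, 372 and 47 came without POL-Seq control replicate 1, where the lone library of that group is assumed to vary like the others. The log2 difference of Smn1 with HuD ranged from -0.23 to -0.18 in total RNA, -0.25 to -0.19 in polysomal RNA and -0.40 to -0.051 at 3′ ends, and in total RNA its unadjusted p was above 0.05 when any 1 of the 4 libraries was left out. Of 49 values of single members, 27 changed sign without some library. For polysomal against total RNA in control cells their ranges were -0.076 to 0.16 for Gemin2, -0.019 to 0.24 for Gemin5, -0.016 to 0.13 for Gemin6 and -0.12 to 0.013 for Gemin8. In HuD cells they were -0.0072 to 0.057 for Smn1, -0.13 to 0.066 for Gemin2, -0.068 to 0.012 for Gemin5, -0.10 to 0.12 for Gemin8 and -0.16 to 0.0022 for Ddx20. For HuD in total RNA they were -0.079 to 0.097 for Gemin2, -0.087 to 0.042 for Gemin5, -0.20 to 0.054 for Gemin7 and -0.088 to 0.25 for Ddx20. For HuD in polysomal RNA they were -0.18 to 0.053 for Gemin2, -0.15 to 0.52 for Gemin7, -0.17 to 0.062 for Gemin8 and -0.19 to 0.060 for Strap. For the ratio they were -0.049 to 0.015 for Smn1, -0.20 to 0.038 for Gemin2, -0.050 to 0.093 for Gemin6, -0.078 to 0.60 for Gemin7, -0.056 to 0.17 for Gemin8 and -0.074 to 0.18 for Strap. At 3′ ends they were -0.35 to 0.048 for Gemin2, -0.00079 to 0.14 for Gemin7, -0.31 to 0.0069 for Ddx20 and -0.017 to 0.13 for Strap.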
